A study of Mus musculus with 10 samples.

Results

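The genes described here encode the proteins of the cytosolic ribosome, measured in the hippocampus of mice that carry Dyrk1a, a kinase gene, in excess. Members were all genes whose only symbol in the platform annotation began with Rpl or Rps followed by a number, or was Rplp0, Rplp1, Rplp2 or Rpsa. Pseudogenes and the ribosomal S6 kinases were left out. The rule gave 63 of the 19938 genes that the array names by a single symbol, and it used no expression value. Among them were 33 of the 46 core proteins of the large (60S) subunit, 21 of the 31 core proteins of the small (40S) subunit, and 9 others. The 9 others are the relatives of core genes Rpl3l, Rpl7l1, Rpl10l, Rpl32l, Rpl39l, Rps4l, Rps27l and Rps23rg1, and Rps19bp1, which encodes a binding partner of RPS19 and no ribosomal protein. The 23 other core genes had no transcript cluster of their own: 16 lay only in clusters that carry several symbols, and 7 had no cluster in the annotation used here.

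There were 10 male mice aged 16 weeks, 5 of them Tg(Dyrk1a) and 5 their wild-type littermates. Tg(Dyrk1a) mice have 1 more Dyrk1a copy on a bacterial artificial chromosome, present in every cell, and wild-type littermates lack it. The labels give the background of both groups as C57BL/6N, and the methods of the study name C57BL/6J. The left and right hippocampus of a mouse were extracted together and hybridised to 1 Affymetrix whole-transcript array, and replicates are biological per the labels. All values are on the log2 scale, as processed by the authors with robust multi-array averaging (RMA), and a difference of 1 is a doubling. The question was whether the genes of the ribosome itself differ between the genotypes. In RNA from whole tissue, fewer cells of a type and less RNA in each cell cannot be told apart.

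The ribosome joins a small subunit, which binds the mRNA and reads its codons, to a large subunit, which forms the peptide bonds and holds the exit tunnel of the growing chain. Its proteins are made in near-equal amounts, and most of their mRNAs begin with a cytosine followed by a run of pyrimidines, the 5' terminal oligopyrimidine (TOP) motif, through which mTOR sets their translation. In neurons, ribosomes lie in dendrites as well as in the cell body, and phosphorylation of RPS6, the target of the S6 kinases, is a common readout of neuronal activity. Mutations in several of these genes cause Diamond-Blackfan anaemia.

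The annotated starts were searched for a run of the TOP kind. RefSeq (GRCm38.p6) gave a promoter for 51 of the 63 members. In 10 of the 51 (19.6%) the annotated start was a C followed by at least 4 C or T, against 3.01% of 27025 genes of the table. Such a run began within 10 bases of the start in 29 members (56.9%), against 34.4% of all genes. The 30 bases shown for each gene run from 10 before to 20 from the start on the sense strand. Where a gene has such a run, the one marked is in capitals. They are shown for RPS6, the member that the S6 kinases modify, and for genes named in the comparison.

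Rps6, chr4:86857348-86857377, minus strand: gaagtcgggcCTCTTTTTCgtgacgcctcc
Rps10, chr17:27635225-27635254, minus strand: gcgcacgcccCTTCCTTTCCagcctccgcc
Rpl28, chr7:4792955-4792984, plus strand: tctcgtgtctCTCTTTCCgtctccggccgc
Rpl14, chr9:120571507-120571536, plus strand: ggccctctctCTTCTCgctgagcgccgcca
Rps9, chr7:3704031-3704060, plus strand: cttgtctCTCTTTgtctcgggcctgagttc
Rpl12, chr2:32961702-32961731, plus strand: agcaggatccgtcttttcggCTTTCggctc
Rpl9, chr5:65391412-65391441, minus strand: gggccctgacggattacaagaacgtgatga

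The first 4 of these genes have the marked run at the annotated start, Rps9 has it 3 bases earlier and Rpl12 10 bases later. Rpl12 also has a C-led run nearer to the start, left in small letters because a T precedes it. Rpl9 has none in this window. In the 300 bases from 250 before to 50 after the start, CCGGAAG, the core of sites for ETS-family factors, was found on either strand in 19 of the 51 members (37.3%) and in 9.93% of all genes. AAGATGGC, the core of YY1 sites, was found on either strand in 3 members (5.88%, against 3.19%), and TATAAA in 6 (11.8%, against 15.7%). The 10 members with the run at the start had a median log2 fold change of -0.01, with 6 of them lower in Tg(Dyrk1a), and the other 41 had -0.01, with 25 lower. A match of letters is a description of the sequence and does not show a site in use.

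The genotype and the tissue were checked first. Dyrk1a was 1.38-fold higher in Tg(Dyrk1a) hippocampus, with a mean of 11.65 ± 0.02 (SD, n = 5) against 11.18 ± 0.06 (SD, n = 5) (limma adjusted p = 0.000138). Its groups did not overlap. A second cluster named Dyrk1a was 1.11-fold higher, also without overlap between the groups (limma adjusted p = 0.947), and the mean of the 2 clusters gave a log2 fold change of 0.31, against 0.47 for the main cluster. With marker scores for thalamus, meninges and choroid plexus as covariates the adjusted p of the main cluster in limma was 0.197. The arrays correlated at r = 0.996 to 0.999 with each other, and the array medians lay between 6.57 and 6.66. The 15 markers of hippocampal neurons, Prox1, Wfs1 and Zbtb20 among them, were all measured, and their summed linear level was 14.79 to 14.88 on the log2 scale in Tg(Dyrk1a) and 14.77 to 14.85 in wild type. The 18 measured choroid plexus markers summed to 11.28 to 13.94 in Tg(Dyrk1a) and to 11.51 to 13.97 in wild type. Their score, the mean deviation of the markers from their means over the 10 arrays, exceeded 0.5 on 3 arrays, Tg(Dyrk1a) replicates 2 and 4 and wild type replicate 5.

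No cytosolic ribosomal protein gene differed between Tg(Dyrk1a) and wild-type hippocampus beyond the test threshold. None of the 63 had a limma adjusted p under 0.05, and the smallest was 0.947. Over all 23410 annotated transcript clusters 2 passed (0.00854%). At an unadjusted p under 0.05, 1 member, Rps9, was lower (background 1.94% of all clusters lower) and 0 were higher (background 2.99% higher; 4.93% in either direction). The 5 Tg(Dyrk1a) values lay entirely below or above the 5 wild-type values for 0 of the 63 members, against 0.807% of all clusters (0.273% lower, 0.534% higher). The rank method that the study used, FCROS, called 0 members with its ranks trimmed, against 4.83% of all clusters (2.11% lower, 2.72% higher). Without trimming it called Rps9 alone, as lower (1.59% of members, against 2.14% of all clusters lower and 2.82% higher).

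The differences were small in the fit without covariates. The log2 fold changes, as Tg(Dyrk1a) minus wild type, ran from -0.10 in Rps9 to 0.11 in Rpl12, and the median standard error was 0.04. The 95% interval lay within 0.2 of 0 on the log2 scale for 60 of the 63 members and within 0.1 for 18. The 3 intervals that reached beyond 0.2 belonged to Rpl12 (upper end 0.30), Rpl14 (lower end -0.21) and Rps27l (upper end 0.20). Only the interval of Rps9 left out 0, at -0.18 to -0.01. With the marker scores as covariates the range of the estimates widened to -0.17 in Rpl8 and 0.31 in Rpl12. The latter lay beyond the upper end of its interval without covariates. No member passed the adjusted threshold in that fit. It called 0 of all clusters, and Dyrk1a did not pass either, so the missing calls there say little about the members. RMA summaries compress differences, so a true change could exceed these bounds.

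Of the 63 members, 36 were lower and 27 higher in Tg(Dyrk1a), and their median log2 fold change was -0.01. Over all 19938 genes the median was 0.00 and 48.3% were lower, against 57.1% of the members. The split depended on how the arrays were scaled. It was 27 lower and 36 higher after each array was centred on its median, and 45 lower and 18 higher after quantile normalization. It also depended on single mice: without wild type replicate 1 it was 50 lower and 13 higher, and without Tg(Dyrk1a) replicate 4 it was 31 lower and 32 higher. Neither direction from 0 held under every scaling, but the median of all genes moved as well. After median centring it was 0.02, against 0.00 for the members. After quantile normalization it was 0.00, against -0.01 for the members. In these fits, as in the fit reported, the member median lay below that of all genes, a difference that was not tested. The share of all genes lower was taken only for the fit as reported. The large-subunit members had a median of -0.01 (20 of 33 lower) and the small-subunit members a median of -0.01 (12 of 21 lower).

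**Figure D1:**
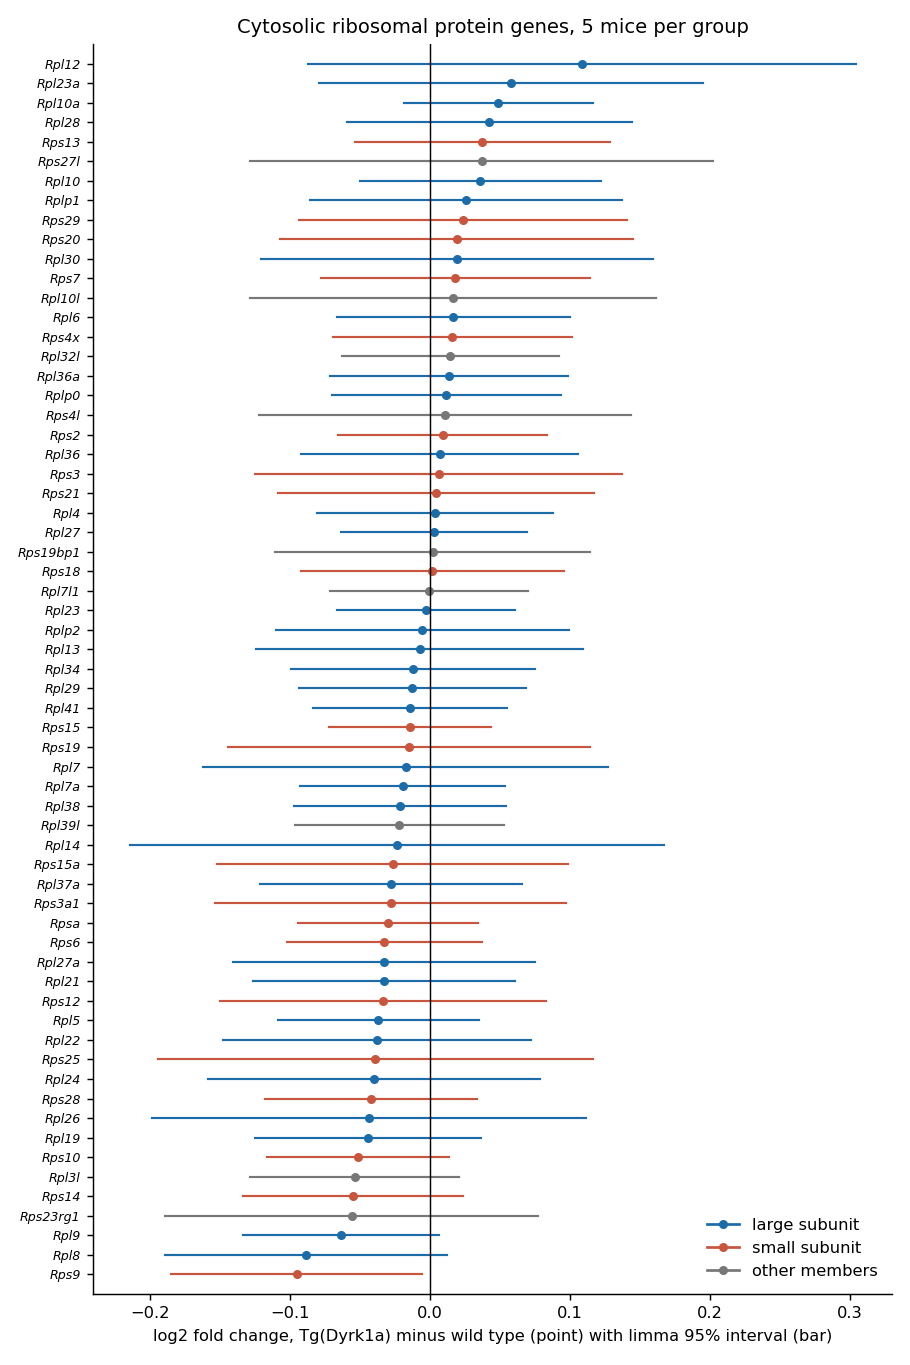
Fold change of each of the 63 members (log2, Tg(Dyrk1a) minus wild type) on the horizontal axis, ordered by size; points are limma estimates and bars their 95% intervals, with large-subunit genes in blue, small-subunit genes in red and other members in grey. Every interval but that of Rps9 crosses 0, and the estimates lie between -0.10 and 0.11.

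The lowest members came from both subunits. Rps9 (chr7:3703954-3706897), a 40S protein that binds ribosomal RNA early in assembly, had values of 10.07, 10.10, 10.01, 9.93 and 10.08 in Tg(Dyrk1a) replicates 1 to 5. In wild-type replicates 1 to 5 it had 10.06, 10.17, 10.22, 10.13 and 10.09. The 3 highest mice were wild type and the 2 lowest Tg(Dyrk1a), but wild type replicates 1 and 5 fell within the Tg(Dyrk1a) range. The log2 fold change of Rps9 was -0.10 ± 0.04 (SE; limma unadjusted p = 0.0383, adjusted p = 0.947; two-sided exact permutation p = 0.0556). The second transcript cluster named Rps9, a dimmer one, differed the other way, by 0.05 ± 0.04. The mean of both clusters gave -0.02. With the marker scores as covariates the brightest cluster was at -0.09.

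Rpl8 (chr15:76904071-76906318) encodes a 60S protein beside the site of peptide bond formation. Its Tg(Dyrk1a) values were 9.85, 10.02, 9.99, 9.81 and 10.03, and its wild-type values were 9.98, 10.06, 10.002, 10.07 and 10.04. Tg(Dyrk1a) replicates 1 and 4 lay below every other mouse, and the remaining 3 lay inside the wild-type range. The log2 fold change was -0.09 ± 0.05 (SE; limma adjusted p = 0.947; exact permutation p = 0.127).

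Rpl9 (chr5:65388364-65391431) encodes a 60S protein near the landing site of the translation factors. It stood at 11.94, 12.02, 11.91, 11.91 and 11.94 in Tg(Dyrk1a) and at 11.97, 12.04, 12.05, 12.00 and 11.98 in wild type. Tg(Dyrk1a) replicate 2 lay among the wild-type mice and the other 4 lay below all of them. The difference was -0.06 ± 0.03 (SE; limma adjusted p = 0.947; exact permutation p = 0.0476 before any adjustment). All 8 clusters named Rpl9 were lower, by 0.05 to 0.07.

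Rps10 (chr17:27630415-27635244), a 40S protein that is ubiquitinated when ribosomes collide and 1 of the Diamond-Blackfan genes, had values of 12.32, 12.30, 12.26, 12.30 and 12.34 in Tg(Dyrk1a). Its wild-type values were 12.35, 12.37, 12.41, 12.34 and 12.31. Only wild type replicate 5 lay within the range of the Tg(Dyrk1a) mice. The difference was -0.05 ± 0.03 (SE; limma adjusted p = 0.947; exact permutation p = 0.0397 before any adjustment). Its other 2 clusters were lower by about the same amount, at -0.05 and -0.06, and in the brighter of these, chosen after its values were seen, the groups did not overlap. That was 1 of the 219 clusters of members, against 0.273% of all clusters lower without overlap (0.807% in either direction).

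Rpl10a and Rpl12 were among the members that stood higher. Rpl10a (chr17:28328471-28331033) encodes the protein of the L1 stalk, which guides spent tRNA out of the ribosome. It had values of 11.80, 11.72, 11.73, 11.71 and 11.77 in Tg(Dyrk1a) and of 11.64, 11.70, 11.69, 11.73 and 11.72 in wild type. All 5 Tg(Dyrk1a) mice lay above the wild-type mean, although the groups overlapped. The difference was 0.05 ± 0.03 (SE; limma adjusted p = 0.947; exact permutation p = 0.0794), and the 4 clusters of the gene gave 0.04 to 0.06.

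Rpl12 (chr2:32961712-32964045) encodes the protein at the base of the stalk that recruits translation factors. It had the highest estimate and the widest spread of all members. Its values were 6.49, 6.27, 6.44, 6.81 and 6.56 in Tg(Dyrk1a) and 6.47, 6.23, 6.55, 6.28 and 6.50 in wild type. Tg(Dyrk1a) replicate 4 was the highest mouse, and the rest of both groups spread over the same range. The difference was 0.11 ± 0.09 (SE; limma adjusted p = 0.952; exact permutation p = 0.373), and without that array it was 0.04.

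**Figure D2:**
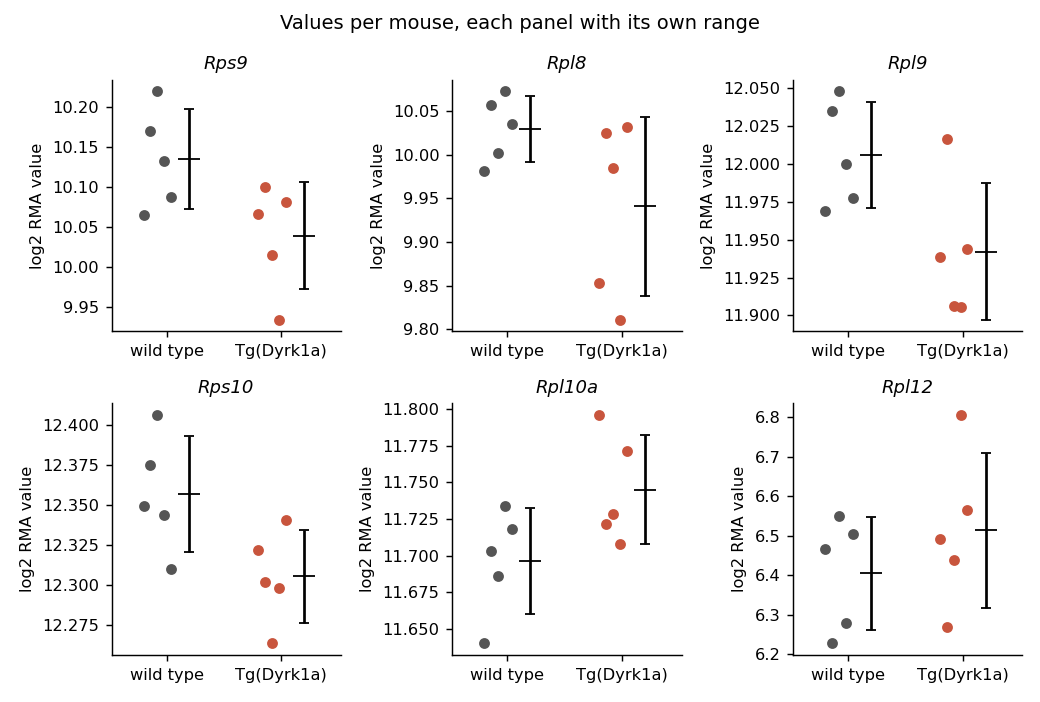
Log2 RMA values of 6 members in each mouse, wild type in grey and Tg(Dyrk1a) in red, with the group mean and SD (n = 5) beside the points in black; each panel has its own vertical range. In every panel at least 1 mouse of a group lies within the range of the other group.

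Among the other large-subunit proteins, no functional group moved as 1. The stalk proteins Rplp0, Rplp1 and Rplp2, which with Rpl12 bind and activate the elongation factors, had log2 fold changes of 0.01, 0.03 and -0.01. Rpl5, which carries 5S ribosomal RNA into the large subunit and can bind MDM2, was at -0.04 ± 0.03 (SE; limma adjusted p = 0.954). Around the exit tunnel, 5 of the 9 listed proteins were measured. Rpl23a, which docks the signal recognition particle at the tunnel exit, was at 0.06 ± 0.06 (SE), Rpl19 at -0.04 ± 0.04 (SE), and 3 of the 5 were below 0. Rpl28 was at 0.04 ± 0.05 (SE), with 12.30 in Tg(Dyrk1a) replicate 4 and 12.04 to 12.13 in the other 9 mice, and without that array its difference was -0.00. Rpl14 was at -0.02 ± 0.09 (SE), with 7.52 in Tg(Dyrk1a) replicate 1 and 7.73 to 8.02 elsewhere.

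Small-subunit proteins at the mRNA channel and the decoding site were measured for 6 of 8 genes, with a median log2 fold change of -0.02 and 4 of 6 lower. Rps14, at the mRNA exit and deleted in the 5q minus syndrome of blood, was at -0.06 ± 0.04 (SE; limma adjusted p = 0.947). Rps28 was at -0.04 ± 0.03 (SE), Rpsa at -0.03 ± 0.03 (SE) and Rps15 at -0.01 ± 0.03 (SE). Rps15, Rpl23 and Rpsa had the smallest spread between mice of all members, with residual SDs of 0.02, 0.03 and 0.03. Rps13 was at 0.04 ± 0.04 (SE), the highest estimate in the small subunit.

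Rps6, the S6 kinase target, did not differ past the threshold at the level of its mRNA. It had values of 12.97, 13.05, 13.07, 13.04 and 13.09 in Tg(Dyrk1a) and of 13.03, 13.09, 13.12, 13.06 and 13.08 in wild type. The groups overlapped over most of their range, and the difference was -0.03 ± 0.03 (SE; limma adjusted p = 0.961). The 95% interval ran from -0.10 to 0.04. Phosphorylation of RPS6 is not seen on an expression array. Rpl24, which meets RPS6 across the subunits, was at -0.04 ± 0.05 (SE), but its other 2 clusters gave 0.02 and 0.04. Of the 20 Diamond-Blackfan genes listed, 10 were members, of which 6 were lower and 4 higher, with a median of -0.02.

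The relatives outside the core ribosome showed no difference past the threshold either. Rpl3l, the striated muscle relative of Rpl3, was at -0.05 ± 0.03 (SE; limma adjusted p = 0.947), and Rpl39l, which is known from testis, at -0.02 ± 0.03 (SE). Both had low values, with means of 5.35 and 4.66 in Tg(Dyrk1a) mice, where an array can miss a difference. Rps27l, a p53 target, was at 0.04 ± 0.08 (SE), and Rps23rg1, a retroposed copy of Rps23, at -0.06 ± 0.06 (SE). Fau, which encodes RPS30 fused to a ubiquitin-like protein and was not a member by its symbol, was at 0.01 ± 0.04 (SE).

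Ribosomal protein genes have many processed copies in the genome, and the array often names several transcript clusters by the same symbol. The 63 members had 219 clusters: 24 members had 1 cluster and 39 had several, up to 14 for Rps12. Each gene was represented by its brightest cluster. In 28 of the 39 genes all clusters lay on the same side of 0, and in 11 they lay on both sides. The median spread of the log2 fold change among clusters of a gene was 0.03 and the largest was 0.14, in Rps9. Among the 219 clusters, 19 had the same 10 values as another cluster of their gene, the 3 named Rpl41 among them, so clusters are no independent measurements. A further 235 clusters with several symbols held a core ribosomal protein symbol. Their median was 0.00, with 101 lower and 134 higher, and 0 had an unadjusted limma p under 0.05.

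**Figure D3:**
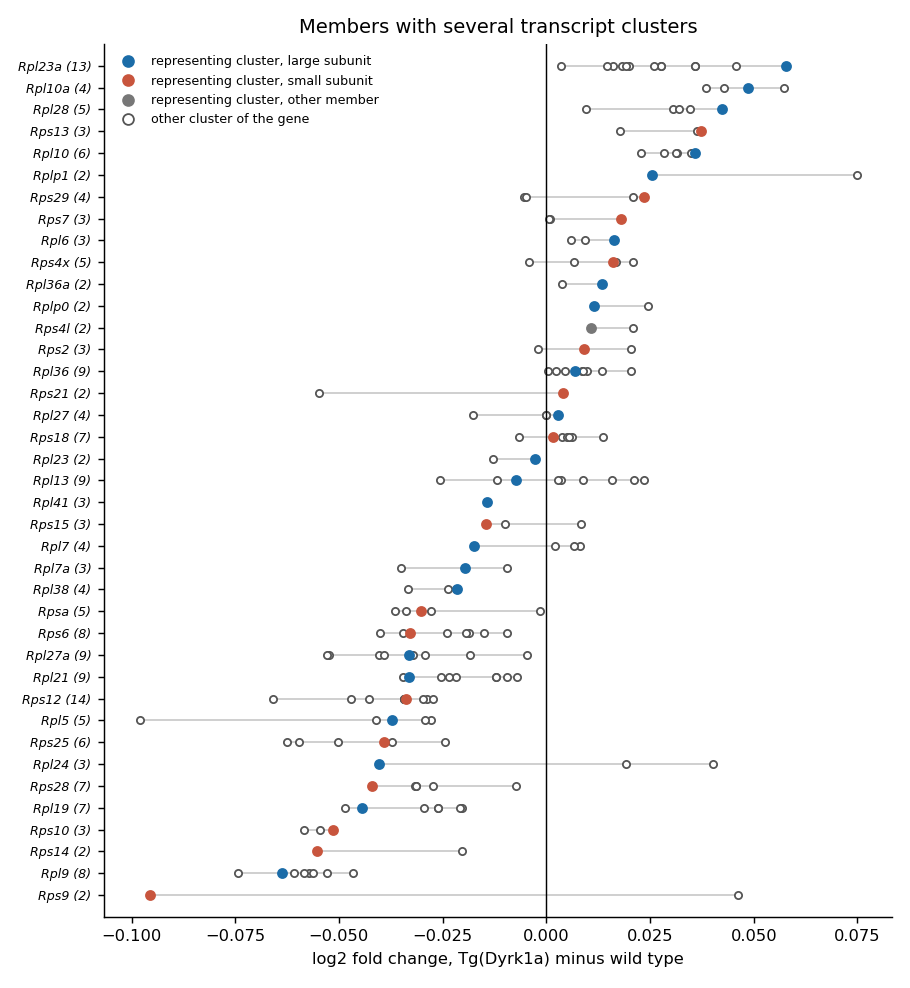
Fold change (log2, Tg(Dyrk1a) minus wild type) of every transcript cluster of the 39 members with several clusters, whose number stands in brackets; filled points are the brightest cluster, which represents the gene, and open points the others. The clusters of Rpl9 and Rps10 lie together below 0 and those of Rpl10a above, whereas the 2 clusters of Rps9 lie on opposite sides.

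Mice differed from each other in these genes more than the genotypes did. A member score was taken for each array as the mean over the 63 members of the log2 value minus the gene's mean over the 10 arrays. It was 0.02, 0.02, -0.03, -0.05 and 0.01 in Tg(Dyrk1a) replicates 1 to 5 and -0.05, 0.05, 0.02, 0.01 and -0.01 in wild type replicates 1 to 5. The lowest arrays of the 2 groups were about equally low, and the group means were -0.00 ± 0.03 (SD, n = 5) and 0.00 ± 0.04 (SD, n = 5). In wild type replicate 2, 54 of the 63 members lay above their own mean, and in wild type replicate 1 only 15 did. In Tg(Dyrk1a) replicate 4 only 14 did, and in replicate 2, 46.

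Members tended to be high or low in the same mice. After the group means were removed, each member was correlated over the 10 arrays with the mean of the other 62. This is a description of arrays whose genes share a normalization and are not independent. The median r was 0.57, and 36 of the 63 members (57.1%) had r above 0.5, against 10.1% of 19875 other genes set against the member mean. Rps7 (0.94), Rpl24 (0.94), Rpl23a (0.93) and Rpl19 (0.93) followed the family most closely. At the other end, 11 members had r below 0, the lowest being Rpl12, whose cluster was dim, at -0.65 and Rpl7l1 at -0.47. Rps9 and Rpl9, among the lowest in Tg(Dyrk1a), followed the family at 0.84 and 0.76. A first principal component held 44.8% of the members' variance within groups. Of the other lists, 42.1% of the translation factors and 34.6% of the mitochondrial ribosomal proteins had r above 0.5 with the member mean, as did 18.8% of the biogenesis genes, 12.1% of the mTOR genes and 5.26% of the quality control genes. The 10 members with the pyrimidine run at the annotated start had a median r of 0.49 and the other 41 with a promoter a median r of 0.56.

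Of the marker lists, that of microglia, picked after the scores were seen, was high and low on many of the same arrays as the member score. The microglia score (11 of 12 markers measured) was 0.06, 0.13, -0.06, -0.10 and 0.02 in Tg(Dyrk1a) replicates 1 to 5 and -0.10, 0.13, -0.06, -0.02 and 0.01 in wild type replicates 1 to 5. It was highest on Tg(Dyrk1a) replicate 2 and wild type replicate 2 and lowest on wild type replicate 1 and Tg(Dyrk1a) replicate 4, which were also the arrays with the lowest member scores, whereas wild type replicate 3 was low in microglia markers and above 0 in the members. The summed level of these markers was 12.23 to 12.45 on the log2 scale in Tg(Dyrk1a) and 12.23 to 12.46 in wild type, so the genotypes overlapped. The score of hippocampal neurons was likewise high on Tg(Dyrk1a) replicate 2 and wild type replicate 2 (0.11 and 0.04) and low on wild type replicate 1 (-0.07). It was lowest on wild type replicate 3 (-0.08), where the member score was above 0. The part of microglial or neuronal RNA in the member values was not tested.

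The choroid plexus score did not follow the member score in this way. Tg(Dyrk1a) replicate 4, the lowest array, had a choroid plexus score of 0.72. Tg(Dyrk1a) replicate 2 and wild type replicate 5 had higher choroid plexus scores, 1.00 and 0.96, and member scores of 0.02 and -0.01. Wild type replicate 1, nearly as low in the members, had a choroid plexus score of -0.48. Without the 3 arrays over 0.5, 40 members were lower and 23 higher, and 0 passed the adjusted threshold in limma. The 19 measured markers of meninges and the 23 of vessels had higher scores in Tg(Dyrk1a) (-0.07 to 0.21 and 0.02 to 0.07) than in wild type (-0.19 to 0.06 and -0.15 to -0.00). The meninges scores of the genotypes overlapped and the vessel scores did not. The vessel score was not among the covariates. At an unadjusted limma p under 0.05, 6 of the meninges and 7 of the vessel markers were higher (background 2.99% of all clusters). The 18 thalamus markers ran the other way, with 17 lower in Tg(Dyrk1a) and a median log2 fold change of -0.12. Of the 17, 4 had an unadjusted limma p under 0.05 (background 1.94% of all clusters lower). The thalamus score was -0.09 to -0.03 in Tg(Dyrk1a) and -0.07 to 0.39 in wild type, where replicate 5 was the highest. The part of these tissues in the member values was not tested.

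**Figure D4:**
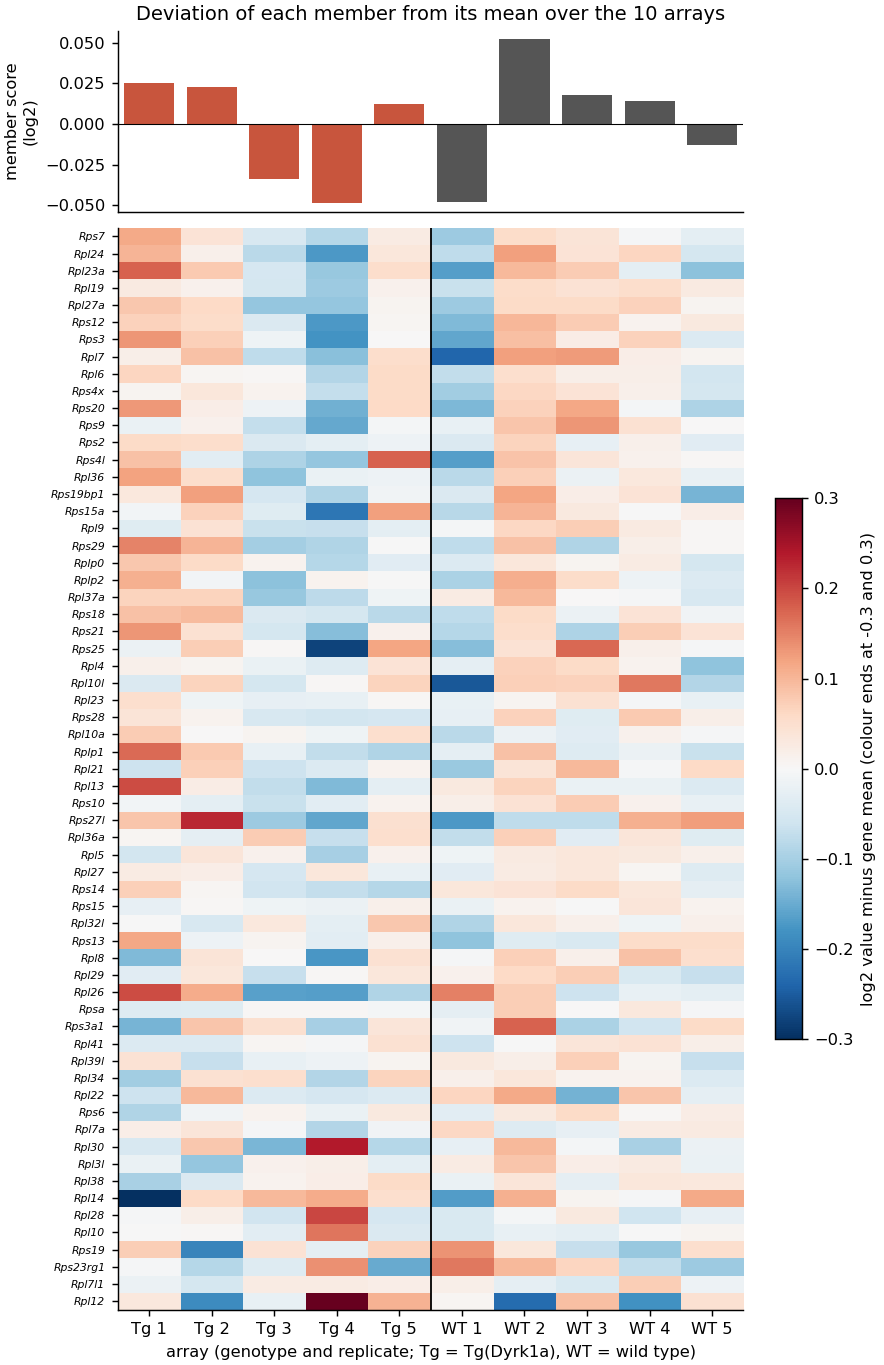
Deviation of each member (rows, ordered by correlation with the other members) from its mean over the 10 arrays (columns), red above and blue below, in log2 units; the bars above give the mean over the 63 members, from -0.05 to 0.05. Columns such as wild type replicates 1 and 2 are coloured 1 way from top to middle, and both genotypes hold red and blue columns.

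Other genes of translation stood beside the members for comparison, and none passed the adjusted threshold in limma. The lists were 38 measured translation factors, 101 ribosome biogenesis genes, 19 ribosome quality control genes, 33 genes of mTOR and the S6 kinases, and 78 mitochondrial ribosomal proteins. Their median log2 fold changes were 0.02, 0.03, 0.01, 0.02 and 0.04, against -0.01 for the members. The mitochondrial ribosomal proteins, which translate the mitochondrial genome's own mRNAs, were higher in 65 of 78 genes, and 7 of the 78 had an unadjusted limma p under 0.05, all higher (background 2.99%). No test of these lists was run, and median centring put the median of all genes at 0.02 and moved every list up with it.

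Tsr1, which acts late in 40S maturation, was the nearest of the biogenesis genes to the threshold. It had values of 8.35, 8.26, 8.39, 8.30 and 8.45 in Tg(Dyrk1a) and of 8.28, 8.17, 8.13, 8.25 and 8.21 in wild type. All 5 Tg(Dyrk1a) mice lay above the wild-type mean, with 1 mouse of each group in the other's range, and the difference was 0.14 ± 0.04 (SE; limma adjusted p = 0.947). Riok1, another 40S maturation factor, was at 0.10, and Rrn3, which recruits RNA polymerase I to ribosomal DNA, at 0.07. Mrps25, Mrpl54 and Mrpl35 of the mitochondrial ribosome were at 0.13, 0.12 and 0.10 (limma adjusted p = 0.947 for each).

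In the remaining lists the genes with the smallest p differed in sign. Of the translation genes, Eif3m, a subunit of initiation factor eIF3, was at 0.08, while Eef1d, of the exchange factor for elongation factor 1, and the histone chaperone Nap1l1, whose mRNA carries a TOP motif, were at -0.06 and -0.06. In ribosome quality control, Ascc1 was at 0.11, the collision-sensing kinase gene Map3k20 at 0.05, and Gigyf2, which represses initiation, at -0.06. Around mTOR, Lamtor4 and Rragd, which bring mTOR to the lysosome, were at 0.08 and 0.10, and Sesn3, which restrains mTOR signalling, was at -0.11. Each had a limma adjusted p of 0.947.

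**Figure D5:**
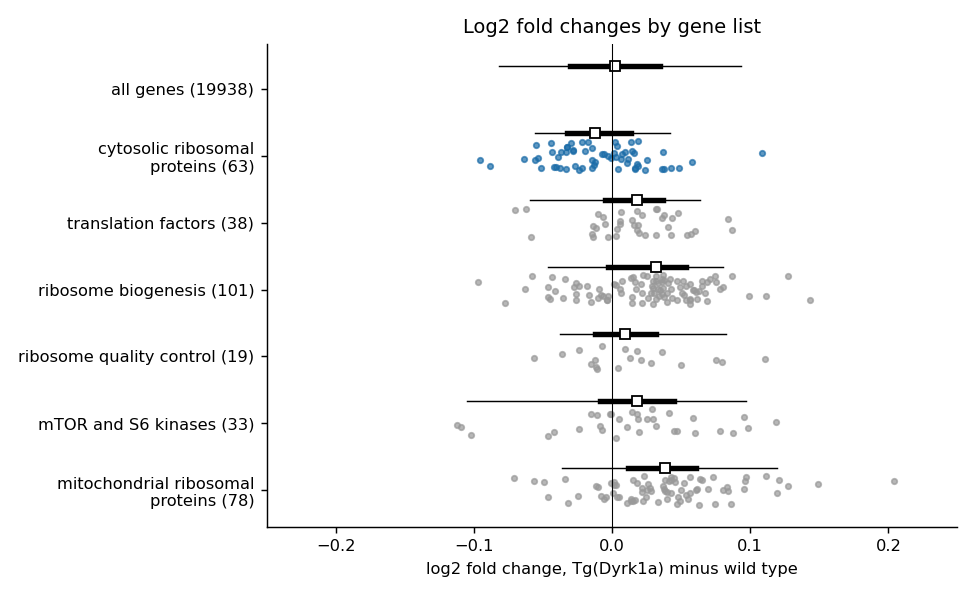
On the horizontal axis, log2 fold changes of Tg(Dyrk1a) over wild type for the members in blue and for 5 other translation lists in grey, 1 point for each gene; above the points, squares are medians, thick lines the 25th to 75th percentile and thin lines the 5th to 95th percentile, also given for all 19938 genes. The medians run from -0.01 for the members to 0.04 for the mitochondrial ribosomal proteins, and every list straddles 0.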

How the data were processed

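Hippocampal RNA of 5 Tg(Dyrk1a) and 5 wild-type mice was measured on Affymetrix arrays. The authors deposited log2 RMA values; the submitters' processing notes name RMA, limma and mm10. The sources used here do not say which arrays shared a normalization.

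The table held 35556 rows, of which 23410 had a gene. The lmFit and eBayes steps of limma 3.58.1 (R 4.3.3) were applied to all 23410, without covariates, with Benjamini-Hochberg adjustment over them. Single genes also had a two-sided exact permutation test (252 assignments, smallest p 0.00794). FCROS was rewritten from its description, with 25% of ranks trimmed at each end and a tail of 0.025. The number of arrays limits the precision.

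The members and lists were chosen with earlier results of these data known. Named genes were Dyrk1a, the 6 highest and 6 lowest fold changes, the 6 smallest p, the 3 largest and 3 smallest residual SDs, the 2 smallest p of each role, and the 3 smallest p of each other list. The scripts were tested on simulated data.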

Additional observations from a re-analysis of the deposited data

Results flagged for a closer look

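In 6 of the 84 groups of 5 arrays that were checked, 1 array stood apart from the other 4 by more than Dixon's limit, where chance alone flags about 1 in 20 groups. Some of the genes checked were named for a large spread or an extreme fold change, and that rate does not apply to them. Rpl14 was 7.52 in Tg(Dyrk1a) replicate 1, against 7.95 to 8.01 in the other mice of that genotype. Rpl28 was 12.30 in Tg(Dyrk1a) replicate 4, against 12.04 to 12.11. Rpl19 was 12.43 in wild type replicate 1, against 12.52 to 12.55, and Rps14 was 10.71 in wild type replicate 5, against 10.77 to 10.79. Outside the members, Nap1l1 was 9.43 in Tg(Dyrk1a) replicate 2, against 9.31 to 9.32, and Rragd was 9.35 in that mouse, against 9.12 to 9.18. No cause was tested.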

How the results depend on the processing

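No member had a limma adjusted p under 0.05 in any of the 20 alternative limma fits, whose smallest member adjusted p was 0.715. These fits called few clusters of any gene: 0 with the marker covariates, 5 with array weights and 1 or 2 in the others. FCROS without trimming called 1 member as lower (background 2.14% of all clusters lower). The count at an unadjusted p under 0.05 was 1 as reported, 3 with array weights, with marker scores as covariates or after quantile normalization, 2 with a robust variance trend, and 0 after median centring, with the mean of all clusters of a gene or without the 3 arrays whose choroid plexus score was over 0.5 (the choroid-high arrays); leaving out 1 array gave 0 to 3. It was 0 with the replicate number as a block, and the block left 1 call over all clusters. The share of all clusters at that unadjusted p was taken only for the fit as reported (4.93%). The labels do not say whether the numbers pair the mice. The deviations of same-numbered arrays from their group means correlated at -0.29 to 0.28 and only number 1 matched its own best, which cannot exclude a pairing. Dyrk1a was 0.44 with the marker covariates and lost its call (adjusted p = 0.197; lowest to highest over all alternatives 4.02e-06 to 0.197). With these covariates the biogenesis median was 0.00909, and the mTOR and translation factor medians turned to -0.0118 and -0.00602. Other medians also changed sign: quality control to -0.00702 without Tg(Dyrk1a) replicate 4, -0.00496 without the choroid-high arrays and -4.88e-05 after quantile normalization; 40S to 0.0152 without Tg(Dyrk1a) replicate 4 and 0.000438 after median centring; 60S to 0.00307 after median centring and, leaving out 1 array, at most 0.0034; and all members to 0.00307 after median centring and, leaving out 1 array, at most 0.000708. Median centring also moved the median of all genes, from 0.00199 to 0.0173. The causes were not tested.

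Some small fold changes turned sign. Rpl28 was -0.0168 without the choroid-high arrays and -0.0026 to 0.062 leaving out 1 array. Rps27l was -0.0203 with the covariates and -0.0149 to 0.0803 leaving out 1 array. Rpl23 was 0.0276 with the covariates, 0.0125 after median centring, 0.00237 without the choroid-high arrays and -0.0158 to 0.00848 leaving out 1 array. Rplp1 was -0.0131 with array weights and -0.0139 to 0.0512 leaving out 1 array. Rps15 was 0.000826 after median centring, Rpl24 0.00639 with the mean of its clusters and Rpl39l 0.00715 with the covariates. Leaving out 1 array, Rpl14 ran from -0.0687 to 0.0676 and Fau from -0.00694 to 0.037. Rpl3l and Rpl39l could not be had without the lowest 30% of clusters.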
